A study of Micropterus salmoides with 18 samples.

Results

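Testis and ovary of the largemouth bass, Micropterus salmoides, a farmed freshwater fish native to North America, were compared at the start of a temperature trial, in 6 of the study's 18 gonad RNA libraries. The 6 are those whose names begin with IC, 3 labelled IC-F and 3 labelled IC-M, and the prefix marks gonads sampled at day 0, before any warming. In the study, 216 fish were spread over 12 tanks of 18, with the sexes kept apart. One group of tanks was held at 20 °C and the other was warmed to 28 °C within 2 h. Gonads sampled after 28 days make up the libraries labelled NC (kept at 20 °C) and HT (kept at 28 °C), again with 3 libraries for each letter. No strain, age or body size is given in the sources used here, and the labels leave unsaid if the 3 libraries in each group stem from single fish or from pooled tissue. The p-values below therefore measure the spread between libraries, which may be technical.

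The gonad genes went against the letters at day 0. Read as female, the letter F should mark ovaries. Yet all 3 libraries labelled IC-F held high levels of sperm genes and low levels of egg genes, and all 3 libraries labelled IC-M held the reverse. The labels are kept throughout, so IC-F below is the set with testis genes and IC-M the set with ovary genes, and every difference is IC-F minus IC-M. Among the later libraries, those labelled NC followed the letters and those labelled HT went against them. Which labels are wrong was not tested.

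A fish testis makes sperm inside cysts, in which spermatogonia multiply, enter meiosis and become spermatids that build a flagellum. Sertoli cells line each cyst, and Leydig cells in the tissue outside the cysts make androgens. A fish ovary holds oocytes that have stopped early in meiosis and grow for a long time. They stockpile ribosomes, messenger RNA and proteins for the embryo, take up yolk proteins made by the liver, and are wrapped in an egg coat and in granulosa and theca cells.

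Levels are in FPKM (fragment counts corrected for gene length and library size), as deposited. Differences are on the log2(FPKM + 1) scale. This scale makes the differences of low genes look smaller than they are. The number of reads behind a value is unknown, and a value of exactly 0 may be a failed estimate, so a gene is then said to be listed at 0. The 6 libraries summed to between 818306 and 983014 FPKM. IC-F had 20308 to 20567 entries at 1 FPKM or more, against 15152 to 15345 in IC-M. Across 21203 genes, log2 values correlated at 0.973 to 0.990 within a group and at 0.392 to 0.420 between the groups.

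The gonads differed in most of their genes. Of 21203 genes tested, 18394 (86.8%) were called at a limma adjusted p under 0.05, 11296 (53.3%) as higher in IC-F and 7098 (33.5%) as higher in IC-M. With a difference of at least 1 on the log2 scale added, 67.4% were called, 43.5% in the direction of IC-F and 23.9% in the direction of IC-M. The median gene stood 0.63 higher in IC-F, and 0.30 higher after median-of-ratios scaling. Against that background a called gene is the rule, so gene groups are described below by their counts in each direction, their median and the size of the differences. A count of called genes in a list near 53.3% in one direction and 33.5% in the other is no more than the background. Several list medians depend on the filter on low values, and without it the median of all genes was 0.23.

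The gonads also differed in how many genes reached 1 FPKM. A total of 11884 entries of the table stood at 1 FPKM or more in all 6 libraries. A further 4577 did so in all 3 IC-F libraries while staying under 0.5 in all 3 IC-M libraries, and 1050 showed the reverse. Many of these have no gene name: 1282 of the 4577 carry a symbol, and 234 of the 1050. In bulk tissue, fewer cells of a type and less RNA per cell cannot be told apart.

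The 2 kinds of gonad were told apart by sperm and egg genes of these same libraries, so germ cell markers cannot test that reading. Markers of gonad cells went with it, with some exceptions. The 8 testis germ cell markers in the table summed to 2882 to 2959 FPKM in IC-F and 62.8 to 71.0 in IC-M, most of the latter from 1 gene, spo11. The 9 oocyte markers summed to 41.1 to 44.4 in IC-F and 2891 to 3026 in IC-M. In IC-F most of that sum came from figla, the oocyte factor that switches on egg coat genes, at 32.4, 29.1 and 27.7 FPKM against 52.9, 56 and 36.6 in IC-M. The 4 granulosa and theca markers in the table summed to 0.26 to 0.55 in IC-F and 32.8 to 38.6 in IC-M. Nearly all of the IC-M sum came from foxl2a and hsd17b1, while fsta and rspo1 stayed near 0 in both groups. Sertoli markers reached 65.5 to 72.8 and 8.86 to 11.5. Leydig markers were close in sum, at 73.7 to 82.4 and 58.0 to 71.4. Of these, hsd3b1, a steroid enzyme that both gonads use, was higher in IC-M, and insl3 and star were higher in IC-F. Some chosen somatic markers had no entry under their symbols: gsdf for Sertoli cells, cyp11c1 and cyp17a1 for Leydig cells and cyp19a1a for granulosa cells.

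**Figure D1:**
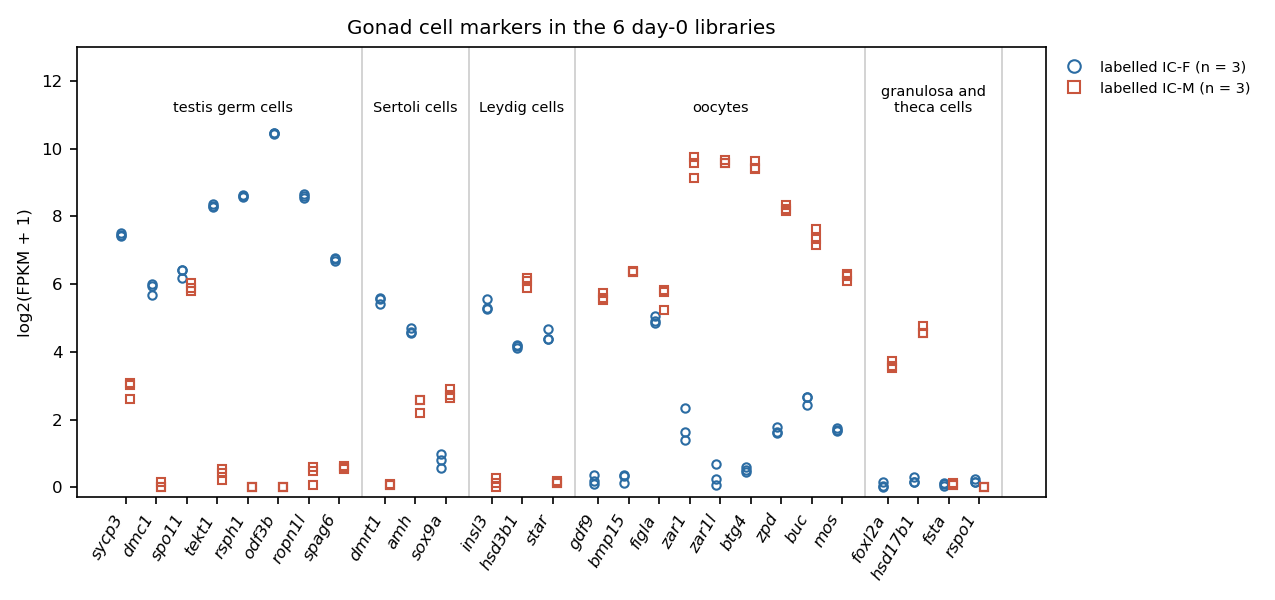
Level of each gonad cell marker on the log2(FPKM + 1) scale in the 6 day-0 libraries, with 1 point per library (circles, IC-F; squares, IC-M). The germ cell markers apart from spo11 and figla separate the groups widely, sox9a and hsd3b1 are the somatic markers listed for the testis that are higher in IC-M, and fsta and rspo1 stay near 0 in both.

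Markers of other tissues were mostly higher in IC-F. Endothelial markers summed to 60.7 to 68.8 FPKM in IC-F and 6.6 to 9.5 in IC-M, with pecam1 and cdh5 under 1 in all 6 libraries. Immune markers reached 8.89 to 9.5 and 1.34 to 2.0, and red cell markers 5.36 to 7.96 and 0.37 to 1.2. Liver markers stayed under 1 in sum in every library. Muscle markers summed to 664 to 706 and 378 to 437, nearly all of it from the smooth muscle genes acta2 and tagln, while the skeletal muscle genes ckma and mylpfa stayed under 1. The skeletal actin acta1a stood at 17.4, 12.7 and 18.8 FPKM in IC-F and 0.78, 1.77 and 0.28 in IC-M. What these cells contribute to the differences below was not tested.

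Genes of the sperm flagellum had the highest median difference of the 36 lists. The flagellum is built on an axoneme, a ring of microtubule doublets with dynein motor arms, radial spokes and linkers. Of 83 genes for doublets, spokes and fibres in the table, 79 passed the filter on low values and 79 were called higher in IC-F, with a median difference of 5.43. Summed over the list, IC-F held 14333, 13975 and 14301 FPKM in its 3 libraries and IC-M a mean of 238. The list's genes were chosen for the flagellum with earlier results of these data known, and the 4 that missed the filter reached 1 FPKM in fewer than 3 of the 6 libraries. A gene under 1 FPKM in every IC-M library could pass only through the 3 IC-F libraries. The filter thus fixed the direction of such a gene, in this list and, either way round, in the others.

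Among genes with a symbol, several of the largest differences towards IC-F were of this kind. A further 4 entries without a symbol differed more than any of them. Odf3b, named for the outer dense fibres of the sperm tail, stood at 1420.3, 1401 and 1388 FPKM in IC-F and was listed at 0 in all 3 IC-M libraries. Saxo2, which stabilises axonemal microtubules, stood at 1137, 1145 and 1199 and at 0, 0.07 and 0 (difference 10.15 ± 0.0695 SE, limma adjusted p = 9.532e-09). Rsph1, a radial spoke head gene, stood at 395, 383 and 384 and was likewise listed at 0 in every IC-M library. The rule that named them asked for groups that do not overlap, so their separation was fixed by the choice. The 3 IC-F libraries lay close together in all of them. Cfap73, cfap77 and rsph14, further axoneme genes, differed by 8.97, 8.44 and 9.26.

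Other genes among the 15 largest differences of genes with a symbol include these. Meig1, which in mice is needed to build the sperm tail, stood at 1029, 1007 and 969 in IC-F and 1.16, 2.54 and 2.87 in IC-M. Ropn1l, a sperm tail protein that binds kinase anchors, stood at 401, 387 and 375 and 0.4, 0.04 and 0.52. Tekt1, a tektin filament of the doublets, stood at 311, 312 and 326 and 0.46, 0.16 and 0.34. Dnali1, an inner dynein arm chain, and dynlt5, a dynein light chain, differed by 7.94 and 8.16. The remaining named genes were fam228a, ccsapa and mlf1 at 8.95, 8.19 and 8.10.

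The dynein arms, which bend the axoneme, gave a similar picture. Of 38 genes for the arms and their assembly, 36 were called higher in IC-F and 1 lower, with a median of 4.64. Ccdc103, an assembly factor, had the highest level of the named ones, at 1533, 1655 and 1586 FPKM in IC-F and 12.7, 18.7 and 32.2 in IC-M. Odad4, which docks the outer arms, stood at 117, 115 and 118 and was listed at 0 in all 3 IC-M libraries. Efcab1, a calcium sensor of the outer arm, stood at 222, 202 and 216 and 0.16, 0.36 and 0.17. The exception was spag1a, a factor for assembling the arms in the cytoplasm, at 1.7, 2.01 and 2.06 in IC-F and 7.21, 8.8 and 7.65 in IC-M (difference -1.60 ± 0.109 SE, adjusted p = 1.219e-05).

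Intraflagellar transport, which carries parts along a growing cilium, differed less. Of 41 genes, 36 were called higher in IC-F and 3 in IC-M, with a median of 2.04. Ift27 stood at 492, 416 and 470.1 FPKM in IC-F and 18.2, 20.1 and 12.8 in IC-M, and dync2i2, of the motor for the return journey, at 251, 264 and 250.4 and 6.24, 6.47 and 4.97. Ift52, a core subunit of the same complexes, ran the other way, at 41.1, 40.3 and 42.8 in IC-F and 244, 236 and 367 in IC-M (difference -2.71 ± 0.175 SE, adjusted p = 9.285e-06). Ift88 and ttc8 were also called higher in IC-M, but by only 0.25 and 0.42, and neither call held after scaling to a common sum (adjusted p = 0.5431 and 0.0586).

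Of the transcription factors for cilia genes, 16 were in the table and 9 were tested, 7 of them called higher in IC-F. Rfx2, which drives sperm tail genes in mice, stood at 75.8, 75.7 and 78 FPKM in IC-F and 4.47, 3.23 and 4.68 in IC-M. Its relatives rfx1a, rfx1b and rfx3 differed by 3.85, 2.64 and 2.46. Myb and e2f4 were higher in IC-M, by 1.66 and 0.83.

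**Figure D2:**
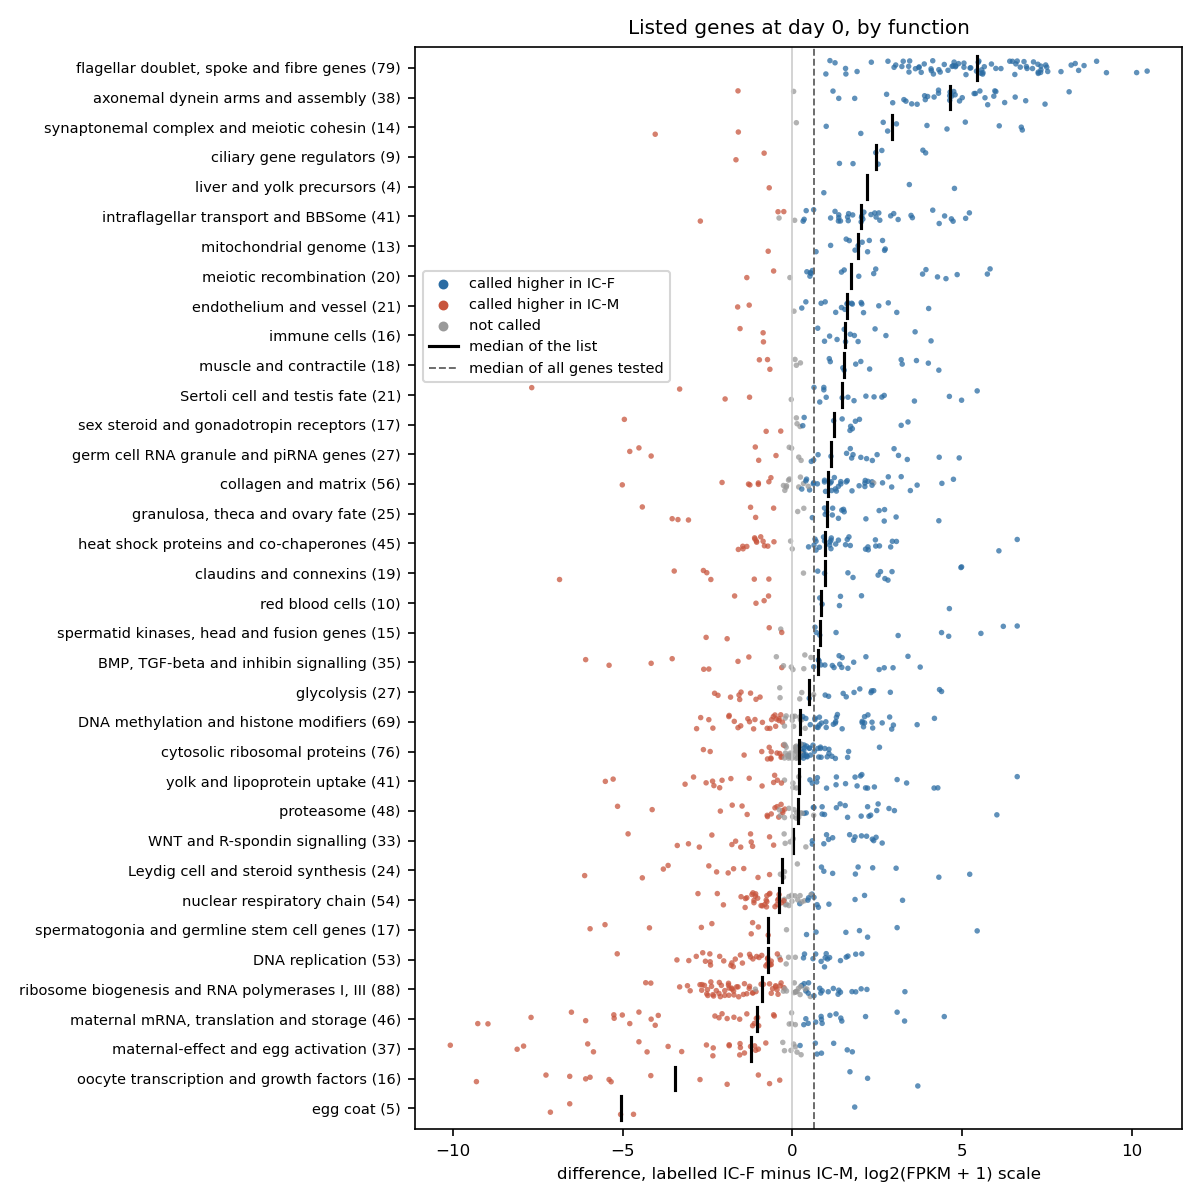
Difference between IC-F and IC-M for every tested gene of 36 functional lists (number tested in brackets), on the log2(FPKM + 1) scale. Each point is a gene, black bars are list medians, and the dashed line at 0.63 is the median of all genes tested. Flagellar and dynein lists lie farthest to the right and egg coat and oocyte factor lists farthest to the left.

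Spermatid head and fusion genes were mixed. Of 15 tested of 16, 10 were called higher in IC-F and 4 in IC-M, with a median of 0.81. Tmem81, which works in sperm and egg fusion in fish and mice, stood at 81.5, 73 and 80.4 FPKM in IC-F and 0, 0.1 and 0.09 in IC-M, and dcst2, needed on sperm for fertilisation, at 59.5, 58 and 54.4 and 0.15, 0.24 and 0.31. Hvcn1, the proton channel that human sperm use, was higher in IC-M, at 2.71, 3.17 and 2.16 and 22.3, 23.9 and 15.4.

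Genes of the synaptonemal complex, which zips homologous chromosomes together in meiosis, were mostly high in the testis. Of 14 genes, 11 were called higher in IC-F and 2 in IC-M, with a median of 2.94. Sycp1, which forms the zip's crosswise filaments, stood at 126, 106 and 129 FPKM in IC-F and 0.05, 0.26 and 0 in IC-M. Sycp3, of the lateral axis, stood at 183, 169.8 and 174 and 7.1, 7.45 and 5.12, and the meiotic cohesin smc1b at 49.1, 41.1 and 43.1 and 0.05, 0.02 and 1.14. Sycp2l, which is found in oocytes in mice, was the clear exception at 0.38, 0.46 and 0.53 in IC-F and 24.3, 25.6 and 19.2 in IC-M (difference -4.04 ± 0.13 SE, adjusted p = 4.144e-07).

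Recombination genes were mostly higher in the testis libraries, with exceptions among those for cutting DNA. Of 20 genes, 17 were called higher in IC-F and 2 in IC-M, with a median of 1.75; after median-of-ratios scaling the counts were 12 and 3. Dmc1, the recombinase that works in meiosis alone, stood at 63.5, 50.5 and 60.5 FPKM in IC-F and 0, 0 and 0.11 in IC-M. Spo11, which cuts DNA to start recombination, stood at 83.7, 71.3 and 84.1 and 57.9, 54.7 and 64.4, so the ovary libraries held much of it. Its call (difference 0.43, adjusted p = 0.006505) was lost after median-of-ratios scaling (difference 0.03, adjusted p = 0.8331). Among the partners of spo11 in cutting, rec114 stood at 60.7, 57.7 and 58.5 in IC-F and 0, 0.2 and 0.15 in IC-M, while mei4 was higher in IC-M at 38.7, 38 and 38.8 and 96, 97.6 and 103.

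Germ cell RNA granules hold piRNAs, small RNAs that silence transposons, and the RNAs that specify germ cells. Of 27 genes tested of 28, 17 were called higher in IC-F and 6 in IC-M, with a median of 1.14. The tudor genes tdrd5 and tdrd15 and the piRNA-processing gene pld6 differed by 3.39, 3.13 and 3.00. Some members ran the other way. Buc, which organises the Balbiani body of fish oocytes, stood at 5.33, 4.36 and 5.3 FPKM in IC-F and 159.7, 141 and 196 in IC-M, and dnd1, which protects germ cell RNAs, at 5.77, 6.37 and 6.24 and 131, 131 and 118. Tdrd6, a tudor gene that works with buc in the germ plasm of zebrafish, was higher in IC-F, at 181, 168 and 179 and 37.1, 31.4 and 23.8.

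The nanos genes, RNA-binding repressors of germ cells, were divided between the gonads. Nanos1 stood at 46, 39 and 44.7 FPKM in IC-F and 0.27, 0.78 and 0.36 in IC-M (difference 4.92 ± 0.152 SE, adjusted p = 3.533e-07). Nanos3 stood at 0, 0.57 and 0.46 and 52.2, 53.7 and 8.44 (difference -4.52 ± 0.694 SE, adjusted p = 0.0007742). The third IC-M library held far less nanos3 than the other two, but the groups did not overlap.

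The list for spermatogonia, the stem and dividing germ cells of the testis, did not lean to the testis. Of 29 genes in the table, 17 were tested, 7 called higher in IC-F and 9 in IC-M, with a median of -0.71; without the filter on low values the median was 0.10. Dmrt1, which these cells share with Sertoli cells, stood at 46.2, 41.7 and 47.1 FPKM in IC-F and 0.05, 0.04 and 0.06 in IC-M. The stem cell factor zbtb16b and the GDNF receptor gfra1a were higher in IC-F, by 3.09 and 1.98. Pou5f3 and sox3, pluripotency and early embryo factors that fish eggs also carry, were higher in IC-M. Pou5f3 stood at 0.11, 0.29 and 0.21 and 78.3, 79.1 and 64.7, and sox3 at 0.82, 0.8 and 0.45 and 77.9, 78.8 and 71.4.

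Sertoli cell genes were mostly higher in the testis libraries. Of 32 in the table, 21 were tested, 16 called higher in IC-F and 4 in IC-M, with a median of 1.47. Cst3, a secreted protease inhibitor, had the highest level, at 2319, 2272 and 2319 FPKM in IC-F and 88.1, 102 and 88 in IC-M. Cldn11a, a tight junction gene of the barrier around germ cells in mammals, stood at 191, 179 and 184 and 4.54, 6.69 and 3.64. Amh, the hormone that represses female ducts in mammals and germ cell growth in fish, stood at 22.6, 23 and 25.1 and 4.96, 5.01 and 3.54.

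The testis fate list also held genes that were high in the ovary libraries. Tcf21, a mesenchyme transcription factor of the gonad, stood at 0, 0.06 and 0 FPKM in IC-F and 208, 193 and 226 in IC-M (difference -7.68 ± 0.0881 SE, adjusted p = 1.724e-08), the largest of the list in size. Sox9a, a testis factor in mammals, was low in both and higher in IC-M, at 0.99, 0.74 and 0.48 and 6.53, 5.61 and 5.26. Ptgdsb.1, a prostaglandin synthase, stood at 8.02, 8.26 and 8.09 and 95.3, 124 and 61.2.

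Steroid synthesis genes were divided between the gonads. Of 28 genes in the table, 24 were tested, 9 called higher in IC-F and 11 in IC-M, with a median of -0.31. Star, which brings cholesterol into the mitochondrion at the first step, stood at 19.7, 24.6 and 19.6 FPKM in IC-F and 0.1, 0.13 and 0.09 in IC-M, and fdxr, which feeds electrons to the first enzymes, differed by 3.06. Insl3, the peptide hormone of Leydig cells, stood at 45.7, 37.6 and 37.9 and 0, 0.1 and 0.21. Hsd3b1, an enzyme further along the pathway, was higher in IC-M, at 17, 17.2 and 16.2 and 66.6, 57.8 and 71.1. Hsd17b1, which makes oestradiol, stood at 0.11, 0.12 and 0.23 and 22.6, 26.3 and 22.3.

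Further members of the list with large differences towards IC-M were these. Hsd17b12a, which also lengthens fatty acids, stood at 0.28, 0.18 and 0.36 FPKM in IC-F and 100.2, 108 and 62.3 in IC-M. Scarb1, the receptor that takes cholesterol from high-density lipoprotein, stood at 10.9, 11 and 11.6 and 182, 168 and 155. Srd5a1, a steroid 5-alpha-reductase by name, stood at 0.92, 1.17 and 1.48 and 25.4, 27.8 and 26.7. For these genes every IC-M library was above every IC-F library, which largely follows from naming the largest called differences.

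Hormone receptors were called in both directions. Of 31 in the table, 17 were tested, 11 called higher in IC-F and 3 in IC-M, with a median of 1.22. After median-of-ratios scaling 9 were called higher in IC-F and 3 in IC-M, with a median of 0.89. Of all 21203 genes, that scaling gave 10239 called higher in IC-F and 8310 in IC-M, with a median of 0.30. Without the filter the median of the list was 0.32, against 0.23 for all genes. The nuclear progesterone receptor pgr stood at 37.6, 30.6 and 34.9 FPKM in IC-F and 1.74, 2.41 and 2.89 in IC-M, and the oestrogen receptor esr2b at 21.1, 19.5 and 20.6 and 5.23, 5.31 and 5.93. The membrane progestin receptor paqr8 was high in the ovary libraries, at 0.58, 0.28 and 0.41 and 41.8, 37.5 and 49.9 (difference -4.95 ± 0.139 SE, adjusted p = 2.441e-07). Lhcgr, the receptor for luteinising hormone, was low in both, at 4.27, 3.52 and 3.29 and 0.36, 0.41 and 0.12.

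Granulosa, theca and ovary fate genes did not lean to the ovary as a list. Of 43 in the table, 25 were tested, 16 called higher in IC-F and 7 in IC-M, with a median of 1.01. Some members also count for testis cells or steroid synthesis above. Inha is also on the Sertoli list, star on the steroid synthesis list, and amh is a Sertoli marker. They were called higher in IC-F, by 2.71, 4.32 and 2.17. Hsd17b1, shared with the steroid synthesis list, was called higher in IC-M, by 4.42. The ovary factors foxl2a and runx1 were higher in IC-M. Foxl2a stood at 0.03, 0 and 0.12 FPKM in IC-F and 11.1, 12.3 and 10.4 in IC-M, and runx1 at 0.16, 0.14 and 0.05 and 10, 8.67 and 13.4. Without the filter the median was 0.26. Members higher in IC-F included the following. Inha, the alpha subunit of inhibin, stood at 76, 88.3 and 81.1 and 11.4, 14.9 and 9.17, and fstl3, which binds activin, at 30.2, 29.1 and 29.1 and 3.5, 4.51 and 2.96.

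Egg coat genes were among the most divided. All 5 in the table were tested, 4 called higher in IC-M and 1 in IC-F, with a median of -5.06. Zpax1 and zp3d.2, zona pellucida proteins that build the coat, stood at 345, 362 and 279 and 201, 222 and 162 FPKM in IC-M, against 0.96, 1.59 and 1.52 and 4.86, 4.46 and 5.19 in IC-F. Spaca4l, whose product on zebrafish eggs lets sperm in, stood at 0.24, 0.26 and 0.5 in IC-F and 30.5, 39.4 and 29.9 in IC-M. The exception, tgm2b, is a protein-crosslinking enzyme with uses in many tissues, at 5.9, 4.89 and 4.57 and 0.5, 0.87 and 0.76. Zpcx, a further zona pellucida gene by its name, was among the 15 largest differences towards IC-M of genes with a symbol, at 0, 0.59 and 0.42 and 655, 629.7 and 797.

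Oocyte transcription and growth factors followed. Of 19 in the table, 16 were tested, 13 called higher in IC-M and 3 in IC-F, with a median of -3.45. The oocyte growth factors gdf9 and bmp15, which act on the surrounding granulosa cells, stood at 46.9, 52.1 and 44.8 and at 82.8, 80.7 and 81.1 FPKM in IC-M and under 0.5 in every IC-F library. Foxr1 stood at 0, 0.29 and 0 in IC-F and 197, 207 and 111 in IC-M, and sox19b, a maternal factor of the zebrafish embryo, at 0.31, 0.29 and 0.35 and 129, 136 and 107. Tp63, a guardian of the female germ line in mice, was higher in IC-F, at 16.4, 14.1 and 14.7 and 0.06, 0.38 and 0.29.

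Oocytes store messenger RNA in a silent state and translate it later. Of 46 genes tested of 51 for this storage, 27 were called higher in IC-M and 15 in IC-F, with a median of -1.04. Zar1 and zar1l, which bind and stabilise maternal RNA, stood at 769, 859.8 and 558 and 756, 765 and 816 FPKM in IC-M, against 1.62, 4.04 and 2.1 and 0.05, 0.19 and 0.62 in IC-F. Btg4, which clears maternal RNA at the end of meiosis in mice, stood at 0.42, 0.51 and 0.36 in IC-F and 686, 672 and 793 in IC-M, and lsm14b, a component of storage particles, at 2.67, 2.88 and 2.61 and 154, 158 and 117. Cth1, a zinc finger RNA-binding gene that was among the 15 largest differences of genes with a symbol, stood at 2.97, 2.94 and 3 and 832, 712 and 1414.

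The storage list had members that were high in the testis instead. Ybx1, a cold-shock-domain protein that packages stored messages, stood at 2358, 2365 and 2419 FPKM in IC-F and 254, 303 and 179 in IC-M (difference 3.31 ± 0.188 SE, adjusted p = 5.044e-06). Fxr1 and fmr1, related translational regulators, stood at 27.2, 24.1 and 27.8 and 17.3, 16.1 and 18 in IC-F, against 0.23, 0.31 and 0.15 and 3.19, 3.3 and 2.72 in IC-M. Every IC-F library was above every IC-M library for all 3 genes, which were named for their large called differences.

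Maternal-effect and egg activation genes leaned the same way as the oocyte factors. Of 37 tested of 38, 23 were called higher in IC-M and 7 in IC-F, with a median of -1.23. Mos and wee2, kinases that hold the oocyte in arrest, stood at 74.4, 78.3 and 67.1 and 173, 160.2 and 121 FPKM in IC-M, against 2.15, 2.38 and 2.2 and 1.67, 1.81 and 1.34 in IC-F. Bmb, which fuses nuclear membranes in cleaving zebrafish embryos, stood at 4.15, 3.66 and 3.57 in IC-F and 301, 302 and 333 in IC-M. Slbp2, the oocyte form of the histone message binding protein, stood at 0.91, 0.63 and 0.75 and 417, 324 and 567, and kpna7, an importin of oocytes, at 0.73, 1.91 and 0.92 and 648, 675 and 459.

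Among genes with a symbol, the largest difference towards IC-M was in a survivin gene, a subunit of the complex that corrects chromosome attachment at division. Birc5b stood at 0, 0 and 0.15 FPKM in IC-F and 1183, 1329 and 925 in IC-M (difference -10.08 ± 0.148 SE, adjusted p = 2.946e-08). Its paralog birc5a was higher in IC-F, at 952, 894 and 886 and 259.6, 221 and 331 (difference 1.77 ± 0.151 SE, adjusted p = 3.772e-05). A further 29 entries without a symbol differed more than birc5b. The survivin genes were thus high in both gonads, each led by a different copy. Since the counting of reads between copies is not described, such pairs are uncertain.

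**Figure D3:**
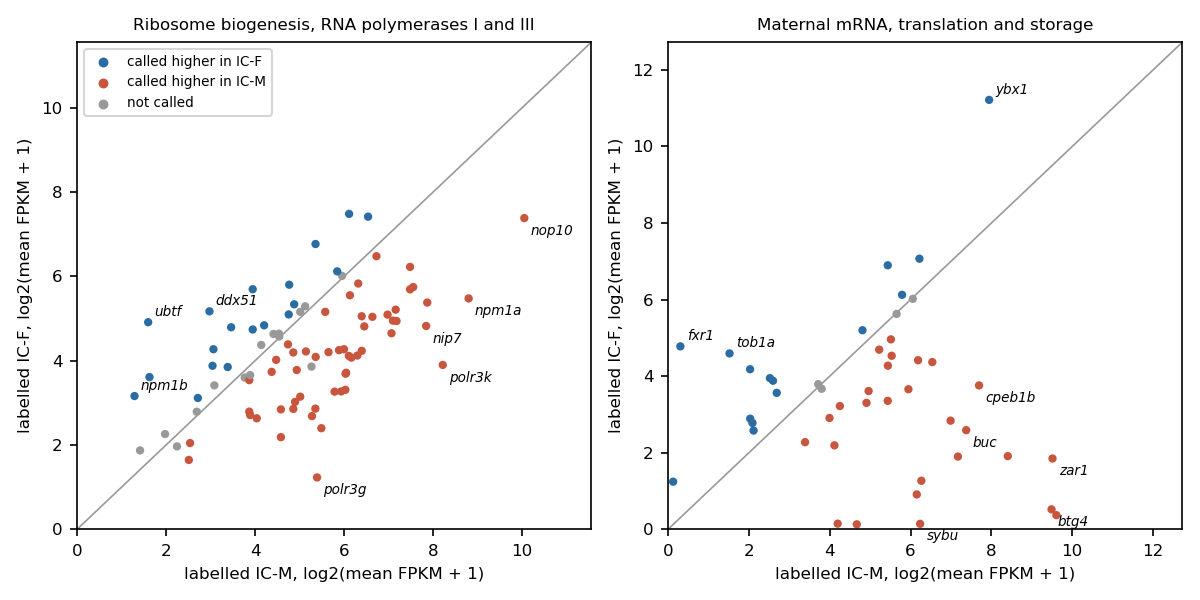
Mean level of each tested gene in IC-M (x axis) and IC-F (y axis), both on the log2(FPKM + 1) scale, for ribosome biogenesis with RNA polymerases I and III (left) and for maternal mRNA storage (right); n = 3 libraries a group. Points below the diagonal are higher in IC-M, where polr3k, npm1a, zar1 and btg4 lie, and ybx1, fxr1 and ubtf lie above it.

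Genes that build ribosomes were mostly higher in the ovary libraries. Of 88 genes for ribosome biogenesis and RNA polymerases I and III, 54 were called higher in IC-M and 19 in IC-F, with a median of -0.89. The list summed to a mean of 2505 FPKM in IC-F and 6123 in IC-M. RNA polymerase III makes 5S ribosomal RNA and transfer RNA, and its factor TFIIIA starts the 5S genes. Gtf3ab, a TFIIIA gene, stood at 0, 0.3 and 0.24 in IC-F and 696, 868 and 681 in IC-M, the second largest difference towards IC-M among genes with a symbol.

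Subunits of the polymerase itself were called in both directions. Polr3k stood at 12.9, 13.9 and 15 FPKM in IC-F and 276, 301 and 314 in IC-M, and polr3g at 1.1, 1.17 and 1.76 and 40, 46.7 and 36.3. Polr3c, a further subunit, was higher in IC-F, at 50.4, 47.4 and 54.5 and 14.2, 17.4 and 11.5. Npm1a, a nucleolar chaperone that assembles ribosomes, stood at 43.9, 42.4 and 44.1 and 443, 391 and 499.9, and nip7, a factor for the large subunit, at 26.4, 27.2 and 28.2 and 229.6, 196 and 261. On the polymerase I side, its activator ubtf was higher in IC-F, at 28.8, 29.1 and 29.4 and 2.08, 2.22 and 1.76.

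The ribosomal proteins themselves did not divide the gonads in this way. Of 76 genes, 32 were called higher in IC-F and 14 in IC-M, with a median of 0.19, but after median-of-ratios scaling the counts were 12 and 30 and the median -0.21. A few copies differed clearly. Rps27l stood at 269, 254 and 259 FPKM in IC-F and 38.9, 49 and 42.3 in IC-M, while rps27.2 stood at 25.7, 20.9 and 22.4 and 128, 139 and 176. Rpl5a and rpl22l1 were higher in IC-M, by 2.42 and 1.42, and rps14 and rpl31 higher in IC-F, by 1.66 and 1.63. Proteasome genes, with 20 of 48 tested higher in IC-F and 16 in IC-M, also changed the sign of the median with that scaling, from 0.16 to -0.24. Psma6l, a copy of a core subunit, stood at 90.8, 85 and 91.9 in IC-F and 0.78, 0.35 and 0.1 in IC-M, and the assembly gene psmg4 at 7.87, 4.14 and 7.31 and 128, 120.2 and 129.

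Energy genes went in opposite directions by genome. The mitochondrial genome encodes 13 proteins of the respiratory chain, and 12 of them were called higher in IC-F and 1 in IC-M, with a median of 1.94. COX2 stood at 18196, 23974 and 22317 FPKM in IC-F and 3289, 3475 and 2994 in IC-M, CYTB at 5012, 6596 and 5855 and 804, 767 and 1239.8, and ND3 at 1139, 1492 and 1263 and 167, 195 and 218. These genes took 8.38%, 10.1% and 9.51% of all FPKM in the IC-F libraries and 2.2%, 2.0% and 2.8% in the IC-M libraries. ND1 was the exception, at 209.5, 361 and 392 and 528, 497 and 491, and its call (difference -0.71, adjusted p = 0.02673) was lost without the first or the second IC-M library (adjusted p = 0.07291 and 0.05754) and with common-sum scaling (0.0642). ND2 overlapped between the groups and lost its call without any one of 5 libraries.

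The nuclear genes for the same chain leaned towards the ovary. Of 54, 30 were called higher in IC-M and 11 in IC-F, with a median of -0.39, and they summed to a mean of 11063 FPKM in IC-F and 16964 in IC-M. Atp5pf and atp5fa1, of the ATP synthase, stood at 2040.3, 2169 and 2439.7 and 252, 244 and 194 in IC-M, against 324, 327 and 312 and 48.9, 50.3 and 46.1 in IC-F. Within succinate dehydrogenase the subunits divided. Sdhb was higher in IC-F, at 193, 204 and 199.9 and 56, 56.3 and 50.7, while sdha and sdhdb were higher in IC-M, by 1.51 and 2.03.

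**Figure D4:**
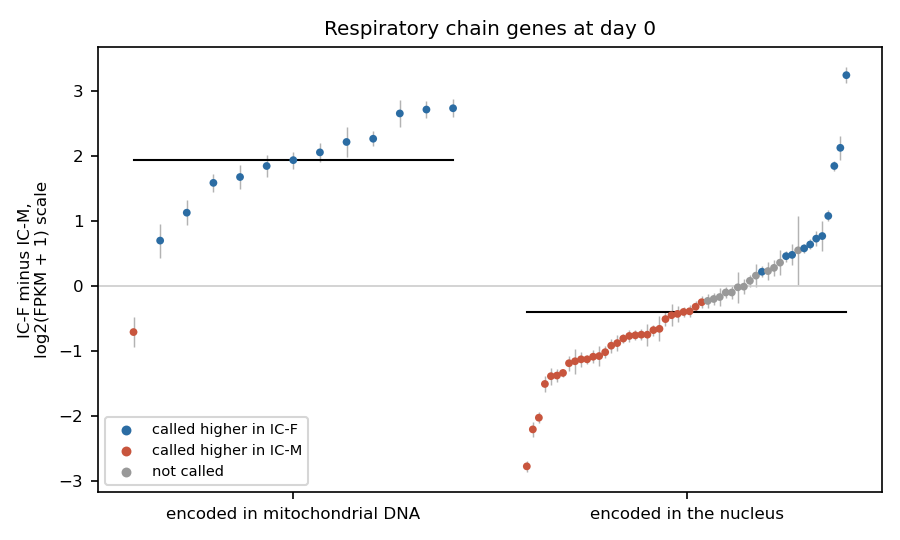
Difference between IC-F and IC-M (log2(FPKM + 1) scale, bars are ± 1 SE) for each respiratory chain gene, ordered within the 13 genes of mitochondrial DNA and the 54 nuclear genes; horizontal lines are medians. The mitochondrial genes lie above 0 apart from ND1, and 30 of the nuclear genes are called below 0.

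Glycolysis genes were called in both directions. Of 34 genes in the table, 27 were tested, 13 called higher in IC-F and 9 in IC-M, with a median of 0.50. These counts are not far from the 53.3% and 33.5% of all genes. The median became 0.10 after median-of-ratios scaling and -0.36 with the filter at 5 FPKM, against 0.30 and 0.26 for all genes. Gapdhs, the form of glyceraldehyde phosphate dehydrogenase found in sperm tails in mammals, stood at 360.5, 381 and 374 FPKM in IC-F and 17.5, 17.4 and 15.2 in IC-M. Ldha, which turns pyruvate to lactate, stood at 214, 224 and 225 and 9.84, 12.6 and 8.01. Tpi1b, gpia and aldocb were higher in IC-M, by 2.29, 1.82 and 1.55, and gpib, the other copy of phosphoglucose isomerase, was higher in IC-F by 2.34.

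Receptors for yolk and lipoproteins were divided between the gonads. Of 47 genes in the table, 41 were tested, 20 called higher in IC-F and 16 in IC-M, and the median of 0.19 became -0.20 after median-of-ratios scaling. Vldlr, the vitellogenin receptor of fish oocytes, stood at 2.06, 2.37 and 2.19 FPKM in IC-F and 115, 116 and 139.8 in IC-M, and lrp13, a further ovary receptor of fish, at 1.84, 1.91 and 1.48 and 121, 114 and 138. Their relative lrp8 was high in the testis libraries instead, at 20.7, 20.1 and 17.8 and 0, 0.03 and 0.11. Ctsba, a cathepsin that cuts yolk protein, and plin3, which coats fat droplets, stood at 531, 495 and 726 and 244, 202 and 189 in IC-M, against 98.2, 99.5 and 96.6 and 25, 22.3 and 21 in IC-F. Fabp7a, a fatty acid carrier, stood at 534, 412 and 468 in IC-F and 4.44, 4.69 and 2.46 in IC-M.

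DNA replication genes leaned towards the ovary. Of 53, 34 were called higher in IC-M and 15 in IC-F, with a median of -0.72. Tk1, which makes thymidine phosphate for DNA, stood at 22.1, 21.5 and 23.5 FPKM in IC-F and 868, 899 and 740.3 in IC-M, the widest gap on the list. Orc1 and cdc45, which mark and open replication origins, stood at 43.6, 38.5 and 46.4 and 49.5, 46 and 43.1 in IC-M, against 2.75, 3.3 and 3.4 and 6.61, 4.7 and 5.67 in IC-F. Top2a and the polymerase gene pole were higher in IC-F, by 1.64 and 1.42.

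Chromatin genes had no common direction: 32 of 69 tested were called higher in IC-F and 25 in IC-M, and the median of 0.24 became -0.12 after median-of-ratios scaling. The genes that copy DNA methylation at replication were higher in IC-M. Dnmt1 stood at 18.6, 16.6 and 16.9 FPKM in IC-F and 97.2, 76.5 and 104 in IC-M, and its guide uhrf1 at 17.5, 15.3 and 17.5 and 59.1, 61 and 70.5. Ezh2, which places the repressive mark on lysine 27 of histone H3, was higher in IC-F, at 117, 116 and 120.3 and 7.81, 7.21 and 9.99. Mbd2, a reader of methylated DNA, stood at 29.7, 25.9 and 24.2 and 0.28, 0.64 and 0.63.

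Signalling genes were called in both directions, at shares not far from the 53.3% (IC-F) and 33.5% (IC-M) of all genes. In the BMP and TGF-beta list, 19 of 35 tested were called higher in IC-F and 9 in IC-M, with a median of 0.77. The BMP messengers smad1 and smad5 differed in opposite directions: smad1 stood at 16.6, 17 and 16.8 FPKM in IC-F and 0.64, 0.78 and 0.62 in IC-M, and smad5 at 7.62, 6.22 and 7.03 and 45.5, 36 and 47.5. Smad7, which blocks the pathway, stood at 2.34, 2.93 and 2.32 and 59.7, 61.4 and 64.5, and id1, a target gene of BMP, at 93.6, 100.4 and 113 and 6.02, 7.41 and 6.22. In the WNT list, 15 of 33 tested were called towards IC-F and 13 towards IC-M, and the median of 0.03 became -0.30 after median-of-ratios scaling. Rspo4, which strengthens WNT signals, stood at 0.21, 0.3 and 0 in IC-F and 33.3, 33.2 and 30.8 in IC-M, and lef1, the pathway's nuclear factor, at 0.58, 0.46 and 0.41 and 13.2, 13.2 and 17.8. Fzd3a, a WNT receptor, was high in the testis libraries, at 73.3, 71.7 and 72.8 and 10.7, 10.8 and 10.7.

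Of the junction genes, 11 of 19 tested were called higher in IC-F and 7 in IC-M, with a median of 0.95. These counts are near the 53.3% and 33.5% of all genes. Cldn7b stood at 1.54, 1.36 and 1.32 FPKM in IC-F and 285, 289.7 and 259 in IC-M, against the reverse for cldn11a. The connexin gjb8, which forms channels between cells, stood at 32.3, 29.5 and 30.5 and 0.05, 0 and 0. Oclna, a tight junction gene, was higher in IC-M, at 1.59, 1.46 and 1.21 and 26.8, 23 and 28.4.

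The matrix, vessel, muscle and immune lists had medians above the 0.63 of all genes. In the collagen and matrix list 37 of 56 tested were called higher in IC-F and 8 in IC-M (median 1.05), and in the endothelial list 18 of 21 and 2 (median 1.61). The muscle and contractile list counted 12 of 18 and 3 (median 1.51), and the immune list 13 of 16 and 3 (median 1.55). Without the filter these 4 medians were 0.49, 0.70, 0.44 and 0.49, against 0.23 for all genes. Acta2, smooth muscle actin, stood at 226, 244 and 226 FPKM in IC-F and 10.1, 12.3 and 9.79 in IC-M. Tagln, a further smooth muscle gene, stood at 429, 379.6 and 426 and 398, 357 and 416, which overlap; it was not called (0.08, adjusted p = 0.4576), and turned to -0.33 (adjusted p = 0.02778) after median-of-ratios scaling. Nid2a, a basement membrane gene, was high in the ovary libraries, at 5.7, 6.86 and 5.27 and 204, 188 and 285.

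The endothelial genes stab1 and plvapa were higher in IC-F, by 4.02 and 2.83, while vegfaa, the vessel growth factor, was higher in IC-M, by 1.61. Among immune genes, lcp1 of white blood cells was higher in IC-F, by 3.62, as were fcer1g and c1qb, by 2.76 and 2.44. The 3 called higher in IC-M were ncf4, by 1.54, and csf1rb and irf8, by 0.85 and 0.86. C1qb, csf1rb and irf8 are all genes of macrophages, so these had no common direction. The call of csf1rb was lost in the fit of all 18 libraries (limma adjusted p = 0.0966). Of 17 liver genes in the table, 4 were tested. Of these rbp4, the carrier of vitamin A, stood at 44.2, 47.7 and 48.1 FPKM in IC-F and 1.75, 0.81 and 0.06 in IC-M. Red cell genes counted 6 of 10 higher in IC-F and 4 in IC-M (median 0.85).

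Heat shock proteins and co-chaperones, which fold proteins and answer heat, were called in both directions at day 0, as most genes were. Of 45 tested of 49, 30 were called higher in IC-F and 13 in IC-M, with a median of 0.95. After median-of-ratios scaling the counts were 26 and 14 and the median 0.57. With that scaling, 10239 of all 21203 genes were called higher in IC-F and 8310 in IC-M, with a median of 0.30. Dnajb13, a radial spoke co-chaperone, stood at 103, 102 and 103 FPKM in IC-F and 0.06, 0.09 and 0 in IC-M, and hsf5, a heat shock factor needed for sperm formation in zebrafish, at 141, 135 and 147 and 1.18, 0.83 and 1.28. The mitochondrial chaperones hspa9 and hspd1 were higher in IC-M, by 1.45 and 1.34.

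Of the 10 entries with the highest mean, 3 had no symbol in IC-F, 1 of them at 78811 FPKM, and all 10 had none in IC-M, the highest at 19961. Among genes with a symbol, the 10 highest in IC-F were 7 genes of mitochondrial DNA (COX1, COX2, COX3, ATP6, ATP8, CYTB and ND2), rps20, rps27a and the start factor eif1. In IC-M, COX1, COX2, COX3 and rps20 shared the top of the genes with a symbol with nuclear genes that were far lower in IC-F. Tmsb4x, which binds actin monomers, stood at 202, 218 and 201 FPKM in IC-F and 4754, 5353 and 4015 in IC-M. Org, named as an oogenesis-related gene, stood at 143, 115 and 137 and 4063, 3995 and 5047, and fabp4b, a fatty acid carrier, at 118, 134 and 125 and 3702, 3924 and 4502. H3f3d, a replacement histone H3 gene, rspry1 and the securin gene pttg1 completed the 10, and they were higher in IC-M by 4.29, 6.88 and 2.33.

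Other genes with a symbol were also among the 15 largest differences towards IC-M. Map1lc3c, of the autophagy family that coats membranes, stood at 0.99, 1.48 and 1.26 FPKM in IC-F and 1162, 1166 and 1459 in IC-M. Tlr18, a toll-like receptor of fish, stood at 0.94, 0.63 and 0.6 and 836, 784 and 1153. The acid phosphatase gene acp5a and the fatty acid activating gene acsl5 were higher in IC-M by 8.38 and 8.37.

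The difference between the gonads at day 0 was set against the same difference after 28 days, taken as the mean of NC-M minus NC-F at 20 °C and HT-F minus HT-M at 28 °C. Of 25184 genes, 7587 (30.1%) were called at a limma adjusted p under 0.05. The day-0 difference was shifted towards the testis for 3972 (15.8%) and towards the ovary for 3615 (14.4%). With a gap of at least 1 on the log2 scale, 16.3% were called, 10.5% towards the testis and 5.84% towards the ovary. The NC-M libraries were unlike each other, and the calls rose to 10852 without the third of them and to 9851 without the first and second together, a setting added after their levels were seen. Day of sampling cannot be told apart from any other difference between the IC libraries and the rest.

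Flagellar genes stood out less from the ovary after 28 days. Of 80 doublet, spoke and fibre genes tested, 47 had a larger difference at day 0 and 0 a smaller one, with a median gap of 1.60 against -0.03 for all genes. The counts were 58 and 2 without the first and second NC-M libraries (median 0.83), 62 and 1 against the 20 °C groups alone and 19 and 0 against the 28 °C groups alone. The dynein list counted 18 and 1 of 38 (median 1.52), but 1 and 0 against the 28 °C groups alone.

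The summed level of the flagellar list shows how the libraries lay. IC-F held 14333, 13975 and 14301 FPKM, HT-F 7950.2, 6908 and 6212, and NC-M 2835, 2703 and 7243. The 9 libraries with ovary genes held 223 to 263. NC-M overlapped HT-F, since the third NC-M library was near HT-F and the others well below.

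**Figure D5:**
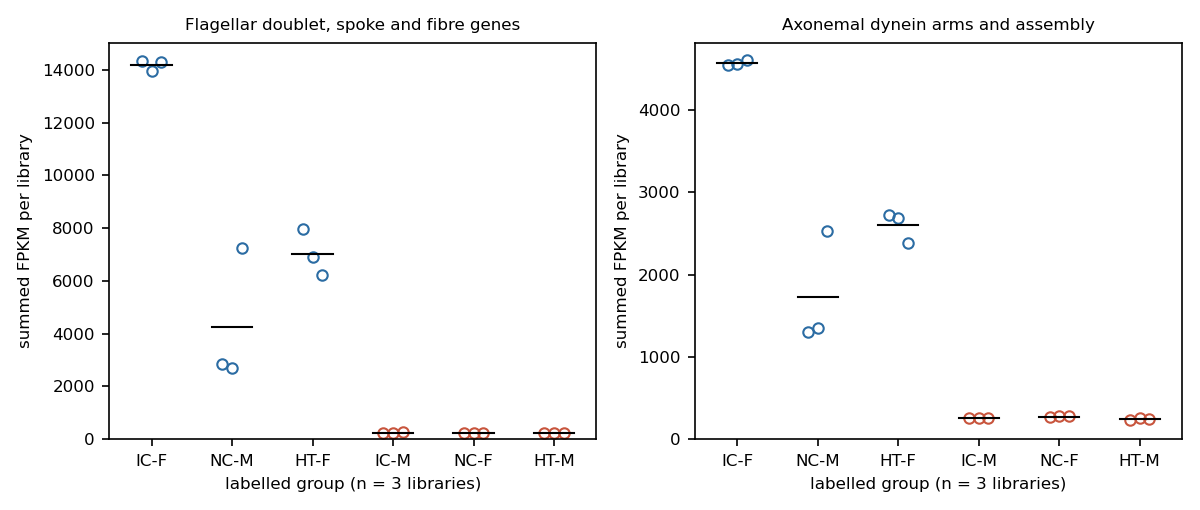
Summed FPKM per library of 83 flagellar doublet, spoke and fibre genes (left) and 38 dynein arm genes (right) in all 18 libraries, by labelled group; black lines are means of 3 libraries. IC-F is highest in both, the third NC-M library lies apart from the other NC-M libraries, and the groups with ovary genes lie near 0.

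DNA replication and ribosome building moved the other way. Of 53 replication genes, the day-0 difference was shifted towards the ovary for 22 and towards the testis for 4, with a median gap of -0.47. Of 88 genes of ribosome biogenesis and polymerases I and III, 26 were shifted towards the ovary and 10 towards the testis (median -0.31). Against the 20 °C groups alone these became 15 and 14. Both lists leaned towards the ovary at day 0, and for a gene higher in the ovary a negative gap is a wider lead at day 0. The nuclear respiratory chain counted 15 and 3 of 54 (median -0.33), but 8 and 7 against the 20 °C groups alone (median 0.12). None of the 13 genes of mitochondrial DNA was called, with a median gap of 0.0. The later difference used here is a mean of unlike differences, so the missing calls cannot show that it matched day 0. Summed over these genes, NC-M held 125876, 127090 and 148629 FPKM and NC-F 11025, 10699 and 11358. HT-F held 11536, 15952 and 11065, which overlap the 11073, 18712 and 13357 of HT-M. Counts against either temperature alone are not given for this list. Of 387 genes named by the rule for day 0 and tested here, 136 were called, 87 of them with a gap of at least 1. Over all 25184 genes, 7587 were called, 4114 of them with such a gap. Many of the 387 were named for a large day-0 difference, which is itself part of the gap, so their count is no result about them.

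The 8 largest gaps each way were named by rule, and a few are given with their levels. Palm1a, a membrane protein gene, stood at 141, 149 and 156 FPKM in IC-F and between 1.58 and 9.47 in the testis libraries labelled NC-M and HT-F (gap 4.72 ± 0.486 SE, limma adjusted p = 1.003e-05). Opn8c, an opsin by its name, stood at 59.9, 56.5 and 57.5 in IC-F, at 1.6, 0.57 and 14.2 in NC-M and at 21.4, 9.24 and 8.75 in HT-F (gap 3.29, adjusted p = 0.003089). Jak3, a kinase of cytokine receptors, stood at 17.2, 14.4 and 22.5 in IC-F and between 0.35 and 1.12 in NC-M and HT-F (gap 3.5, adjusted p = 9.796e-09). For all 3 genes every IC-F library was above every later testis library.

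Tgm8, a transglutaminase gene, showed the reverse. It stood at 2.97, 2.36 and 4.29 FPKM in IC-F, at 193, 167 and 113 in NC-M and at 96.4, 169 and 141 in HT-F, with 7.49, 8.9 and 12.1 in IC-M (gap -6.92 ± 0.437 SE, adjusted p = 7.684e-08). Ccnb2, a cyclin of cell division, was high in both gonads at day 0, at 501, 529.8 and 528 in IC-F and 581, 551 and 782 in IC-M. After 28 days it stood at 16.1, 11.0 and 199 in NC-M and 270.2, 182 and 150.3 in HT-F, and at 706 to 1253 in the later ovary libraries (gap 3.18, adjusted p = 0.01254, and 0.1679 against the 28 °C groups alone).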

How the data were processed

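The authors deposited 1 table of FPKM for 43106 entries in 18 libraries, per the file headers, and RNA came from gonads, per the labels' protocols. Aligner, read counter and genome build: not given in the sources used here. Since FPKM are not counts, depth is unknown and counting intervals were left out. Of the entries, 5484 carry an MSTRG number, 21063 a LOC number and 16559 another name, and 34014 match a RefSeq symbol of assembly ASM1485139v1, which was used for names alone.

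Genes with at least 1 FPKM in at least 3 of the libraries fitted were log2-transformed after adding 1 FPKM and tested with limma 3.58.1 (R 4.3.3), with a variance trend and Benjamini-Hochberg adjustment over all genes tested. The day-0 comparison used the 6 IC libraries, and the comparison with day 28 used all 18 in 6 groups. The day-0 steps were also run on simulated data in which few genes differed between the groups. Since most genes were called in the real data, that run cannot show how the scaling affects these results. SE is the standard error of the log2 difference, and SD is not given where each library is.

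The members, the 36 lists (1375 genes in the table) and the markers were chosen with earlier results of these data known, so no list was tested. Genes were named by rule: the 15 largest called differences each way (symbol, no overlap, at least 1 on the log2 scale, at least 5 FPKM in the higher group), the 10 highest levels in each group, up to 6 called members of a list each way (all where it has at most 12 in the table), the markers, and the 8 largest gaps each way between the times. The text gives a part of these 394 genes. Alternatives changed the pseudocount to 0.1, the filter to 5 FPKM or none, the scaling, the variance trend, the libraries and the block. Pandas 2.3.3 and matplotlib 3.10.9 in Python 3.11.15 made tables and figures.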

Additional observations from a re-analysis of the deposited data

Results flagged for a closer look

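The difference between testis and ovary at day 0 was itself tested against the mean difference after 28 days, and 7587 genes were called different. The 16 named ones are given as gaps on the log2(FPKM + 1) scale, positive where the testis side was higher relative to the ovary side at day 0. The positive ones were palm1a at 4.72, zgc_109986 at 3.96, jak3 at 3.50, dr1 at 3.48, kncn at 3.30, opn8c at 3.29, lrit1a at 3.20 and ccnb2 at 3.18. The negative ones were tgm8 at -6.92, mettl3 at -4.68, nudt2 at -4.35, ca14 at -3.91, sdad1 at -3.89, tmprss2 at -3.26, ppardb at -3.25 and porb at -3.21.

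Some of these rest on entries listed at 0 in whole groups. Mettl3, which methylates messenger RNA, was listed at 0 in all 3 IC-F and all 3 NC-M libraries and stood at 18.4, 7.5 and 8.5 FPKM in HT-F. In the ovary libraries it stood at 42.4, 38.0 and 29.8 in IC-M, at 20.95, 16.7 and 26.1 in NC-F and at 0, 0 and 0.46 in HT-M. Against the 20 °C groups alone its gap was -0.77 (limma adjusted p = 0.1235). Nudt2 was not called against the 28 °C groups alone (-2.33, adjusted p = 0.3297). Sdad1, a ribosome export gene, was listed at 0 in all 3 IC-F libraries against 54.7, 46.9 and 60.6 in IC-M. Porb was listed at 0 in all 3 HT-M libraries and was not called against the 28 °C groups alone (-3.28, adjusted p = 0.05403). The cause was not tested.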

How the results depend on the processing

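At day 0, the count of called genes lay between 12480 and 24049 over the alternatives and between 17721 and 19005 with 1 library left out, against 18394. The 11296 genes higher in IC-F became 6837 with the filter at 5 FPKM, where fewer genes were tested. Each other count of called genes at day 0 stayed within 1.5 times its value, and no named gene called at day 0 changed sign (tagln, which was not called, came to -0.33, adjusted p = 0.02778, with median-of-ratios scaling). Under median-of-ratios scaling 6 named genes lost their call, under common-sum scaling 5, and in the fit of all 18 libraries 12.

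List medians near 0 changed sign. With median-of-ratios scaling these were yolk and lipoprotein uptake (-0.20), cytosolic ribosomal proteins (-0.21), proteasome (-0.24), DNA methylation and histone modifiers (-0.12) and WNT (-0.30). With the filter at 5 FPKM they were yolk uptake (-0.10), glycolysis (-0.36) and WNT (-0.06), and that of DNA methylation and histone modifiers came to 0.00. Without a filter it was spermatogonia (0.10).

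Other list medians moved by over 1.5 times. Without a filter they were 0.64 for Sertoli, 0.89 for ciliary regulators, 0.35 for BMP, 0.11 for junctions, 0.49 for matrix, 0.70 for endothelium, 0.26 for granulosa, 0.49 for immune, 0.29 for liver, 0.44 for muscle, 0.44 for red cells, 0.32 for receptors and 0.13 for WNT, with -0.08 for steroid synthesis and -1.92 for oocyte factors. With a pseudocount of 0.1 they were 1.91 for junctions, 2.43 for endothelium, 1.67 for granulosa, 2.51 for immune, 3.67 for liver, 2.86 for muscle, 1.85 for red cells and 1.69 for spermatid head genes. With the filter at 5 FPKM they were -1.43 for steroid synthesis, -1.17 for spermatogonia, 2.44 for immune, 3.45 for liver, 1.78 for red cells and 1.89 for spermatid head genes. Median-of-ratios scaling gave 0.43 for BMP, -1.10 for replication, -0.64 for steroid synthesis, 0.75 for RNA granules, 0.10 for glycolysis, 0.57 for heat shock and -0.80 for the nuclear respiratory chain. Common-sum scaling moved 7 medians that lay within 0.4 of 0, none across it. In the fit of all 18 libraries they were 1.39 for ciliary regulators, 0.91 for endothelium, 0.68 for liver, -0.17 for spermatogonia and 0.12 for yolk uptake. With 1 library left out, WNT lay between 0.05 and 0.23 where it moved, proteasome came to 0.02 and 0.26, glycolysis to 0.31 and chromatin to 0.11.

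Same-numbered IC-F and IC-M libraries did not deviate together (r = 0.001, -0.001 and -0.015). Pairing is not excluded by this, since a shared source could act on other genes in each gonad. With the replicate block, 18229 genes were called at day 0 and 7001 between the times. Between the times, leaving out 1 library gave 5857 to 10852 calls, and the 20 °C and 28 °C groups alone gave 8919 and 6142. Nudt2 and porb lost their calls without several single libraries, and nudt2 with the block (adjusted p = 0.05277).

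Depth is unknown, the sharing of reads between paralogs is not described, and 3 libraries a group limit the precision.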

Other observations

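Gene copies named with the letters a and b, paired by name alone with their origin not tested, were called in the same or in opposite directions. This count was made after the values were seen, and the genes named here were chosen for their difference. Of 607 such pairs with both copies tested, 251 had both copies called in the same direction and 194 in opposite directions, 96 of these with both differences at least 1 on the log2 scale. In the other 162 pairs not both copies were called. Opposite calls thus made up 32.0% of pairs, where the shares called over all genes would give 35.7% for genes taken without regard to each other, so the count is no sign of a division particular to copies.

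Glutamine synthetase gave a wide split. Glulb stood at 71.1, 60.2 and 64.2 FPKM in IC-F and 0.21, 0.03 and 0 in IC-M, while glula stood at 39.1, 39.5 and 39.2 in IC-F and 405, 412 and 319 in IC-M. Of the stathmin genes, which take microtubules apart, stmn1b stood at 281, 226 and 251 in IC-F and 1, 1.16 and 0.4 in IC-M. Stmn1a stood at 219.7, 198 and 209.8 in IC-F and 1397, 1504 and 2186 in IC-M. The junction gene jam2a stood at 73.2, 70.4 and 74.4 in IC-F and 0.8, 1.29 and 1.14 in IC-M, and jam2b at 0.08, 0.03 and 0.17 in IC-F and 21.2, 20.6 and 14.1 in IC-M. How reads were shared between copies is not described in the sources used here.

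Entries without a gene name made up 54.0% of those called higher in IC-F and 44.1% of those called higher in IC-M. In the whole table, 21063 of 43106 entries carry a LOC number and 5484 an MSTRG number, with entries too low to be tested included. The share among all genes tested is not given, so neither share can be read as an excess.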
